A study of Mus musculus with 9 samples.

Results

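This account covers 43 genes of glycolysis, the hypoxia response and the pentose phosphate pathway, chosen by name, and describes their transcripts in myeloid cells of a healing wound. Of the 43, 36 had a probe set that carries their symbol alone, out of 22180 genes measured in that way, and the probe set with the highest mean over the 9 arrays stood for each gene. The other 7 (Gpi1, Aldoa, Eno1, Bnip3l, Ankrd37, G6pdx and Tkt) are not analysed here. The cells came from the plantar skin of the hindpaw of male C57BL/6J mice, 8 weeks old, 24 h after an incision. The sort took CD11b+Ly6G- cells (CD11b is a myeloid integrin and Ly6G a surface protein of neutrophils) and split them into Ly6C high, Ly6C medium and Ly6C low gates, with 3 Affymetrix arrays for each gate. Ly6C is a surface protein that is abundant on monocytes newly arrived from the blood. There were no unwounded controls, and the labels do not say whether the arrays of a gate hold different mice, so a p-value here reflects only how far these samples vary, and that variation could be technical. RNA was pooled over all cells of a gate, so fewer cells of a type and less RNA per cell cannot be told apart.

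Hypoxia-inducible factor is a transcription factor made of an oxygen-regulated alpha chain, encoded by Hif1a or Epas1, and a constant partner encoded by Arnt. When oxygen is present, prolyl hydroxylases (Egln1 and Egln3) mark the alpha chain, and the Vhl protein then leads it to destruction. When oxygen is scarce, or when inflammatory signals stabilise the factor, it switches on glucose transporters, glycolytic enzymes and other genes of the hypoxia response. Inflammatory myeloid cells are known to rely on glycolysis, and the pentose phosphate pathway branches from it to supply NADPH and ribose.

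All values are log2 intensities, where a difference of 1 is 2-fold, and the array medians lay between 3.93 and 4.10. The mean over 8 pan-myeloid genes lay between 11.11 and 11.28 on all 9 arrays. Of 8 classical monocyte genes, all 8 were lower in low than in high, and of 12 tissue macrophage genes, 10 were higher. Fibroblast genes also differed between the gates, and their list mean lay between 6.76 and 7.81 on high arrays, between 5.22 and 5.44 on medium arrays and between 4.70 and 4.85 on low arrays. Among the high arrays, replicate 1 had the highest fibroblast mean (7.81, against 7.16 and 6.76). It was also the highest of the 3 high arrays for 22 of the 36 glycolysis and hypoxia genes, where 34.2% of all genes were highest on that array. Among the low arrays, replicate 3 had the highest classical monocyte mean (8.27, against 7.35 and 7.51). For 17 of the 36 genes it was the highest low array, where 36.5% of all genes were highest on it. The part of the cell mix in these orders was not tested.

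Ly6C low cells held less transcript of Hif1a, the glucose transporter Slc2a1, the endoplasmic reticulum oxidase Ero1a, the collagen prolyl hydroxylase P4ha1 and the pentose phosphate enzyme Taldo1 than Ly6C high cells. The differences were 1.50-fold to 2.86-fold. These 5 of 36 genes were past the threshold (limma adjusted p under 0.05 over all genes tested), all of them lower in low and 0 higher, which is 13.9% of the 36 genes. Over all 22180 genes, 2.32% were lower, 3.35% higher and 5.67% called in either direction. At an unadjusted p under 0.05, limma had 16 of the 36 lower (44.4%, against 7.46% of all genes) and 1 higher (against 10.4%), where 17.9% of all genes were past it in either direction. The 36 genes had a median log2 difference of -0.38 between low and high, against 0.01 over all genes, and 27 were negative (75%, against 47.3% of all genes). Without high replicate 1, whose fibroblast mean was the highest, 4 genes were called (P4ha1 was not) and the median was -0.27. Without high replicate 3, low replicate 1 or low replicate 2, 3 genes were called. In 14 of the 36 every low array lay below every high array, or 38.9%, while 8.76% of all genes did so. In 1, Eno3, every low array lay above (against 11.4%), and over all genes 20.1% had no overlap in either direction. The F test over the 3 gates passed for 6 of the 36 (Hif1a, Epas1, Egln3, Slc2a1, Ero1a and P4ha1), or 16.7%, against 4% of all genes.

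**Figure D1:**
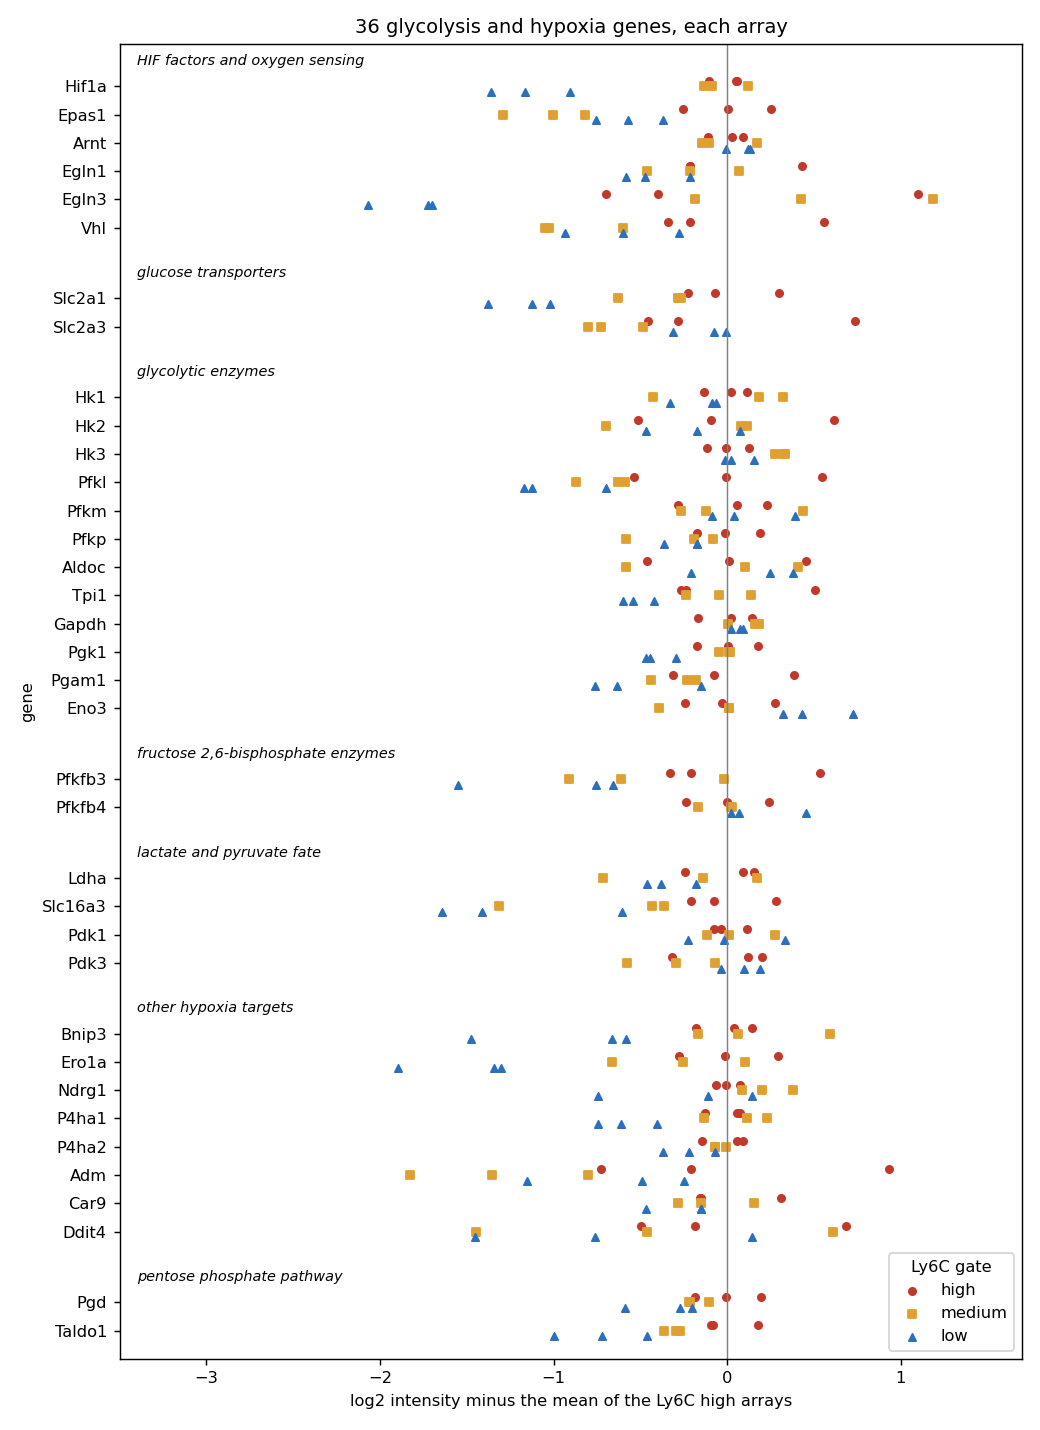
Log2 intensity on each array minus the gene's mean over the Ly6C high arrays (horizontal axis), for the 36 genes measured (vertical axis), grouped by role. Red circles are the 3 Ly6C high arrays, orange squares the 3 medium arrays and blue triangles the 3 low arrays. The low arrays of Hif1a, Egln3 and Ero1a lie clear to the left of the arrays of both other gates.

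**Figure D2:**
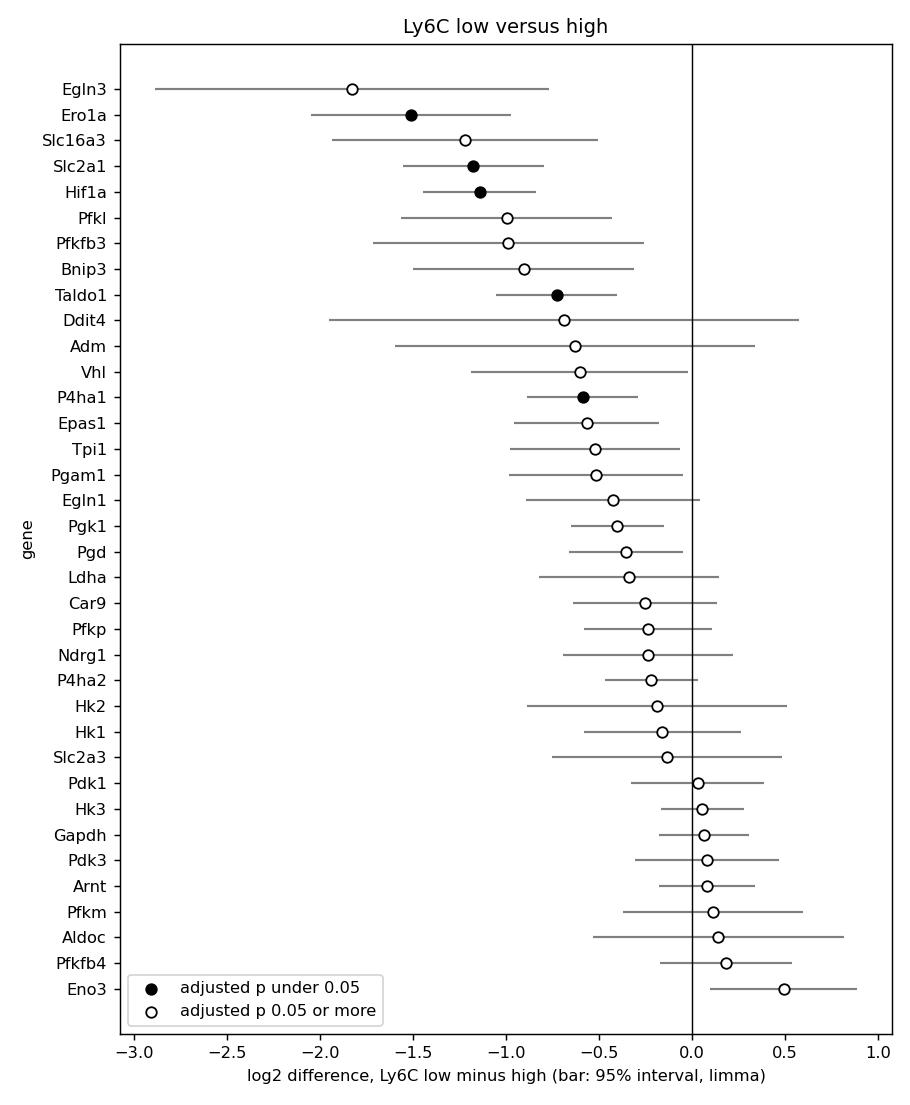
Log2 difference between Ly6C low and Ly6C high (horizontal axis) for each of the 36 genes (vertical axis), ordered by size, with 95% intervals from limma as bars. Filled points are the 5 genes with an adjusted p under 0.05, and their differences run from -1.51 for Ero1a to -0.59 for P4ha1.

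Hif1a, the oxygen-regulated chain, was at 10.30, 10.47 and 10.46 on the high arrays, 10.28, 10.32 and 10.53 on the medium arrays and 9.05, 9.25 and 9.51 on the low arrays. High and medium arrays overlapped, and all 3 low arrays lay below them. Low was 2.21-fold lower than high (log2 difference -1.14, SE 0.13, limma adjusted p = 0.0021) and 2.16-fold lower than medium (log2 difference -1.11, SE 0.13, limma adjusted p = 0.00664). Between medium and high the log2 difference was -0.03, with a 95% interval of -0.34 to 0.27 (limma adjusted p = 0.975). A second probe set of Hif1a gave log2 differences of -1.31 for low minus high, 0.00 for medium minus high and -1.31 for low minus medium. Both calls of Hif1a held whichever array was left out, with adjusted p-values of at most 0.0131 against high and 0.0328 against medium, each without low replicate 2.

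Epas1, which encodes the other alpha chain, had another order of gates. It was at 6.34, 6.09 and 5.83 in high, 4.79, 5.27 and 5.08 in medium and 5.71, 5.33 and 5.51 in low. Every medium array lay below every array of both other gates. The log2 difference of medium minus high was -1.04 (SE 0.17, limma adjusted p = 0.0691), that of low minus high -0.57 (SE 0.17, limma adjusted p = 0.103) and that of low minus medium 0.47 (SE 0.17, limma adjusted p = 0.248). None of these passed the threshold, whereas the moderated F test over the 3 gates did (limma adjusted p = 0.0284). Epas1 is also known from endothelium, so endothelial markers are given beside it. On the high arrays their list mean lay between 4.73 and 5.18, on the medium arrays between 4.46 and 4.58 and on the low arrays between 4.28 and 4.65. Of the 10 markers, 5 (Tek, Tie1, Esam, Cldn5 and Vwf) were under 5 in every gate, and 1, Kdr, was lower in low than in high. Between low and medium, 6 of the 10 markers had a negative log2 difference and 4 a positive one, where 53.9% of all genes were negative. Pecam1, an adhesion molecule of endothelium and leukocytes, was at 6.40, 5.62 and 5.57 on high, medium and low arrays. Kdr was at 6.01, 5.64 and 5.14. Cdh5, the endothelial cadherin, was at 6.87, 5.41 and 5.87, the order of gate means of Epas1. The low and medium arrays of Cdh5 overlapped (limma adjusted p = 0.722). The part of endothelial RNA in the Epas1 values was not tested.

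Of the genes that sense oxygen, Egln3 passed the threshold in 1 comparison, and Egln1, Vhl and the partner chain Arnt passed in none. Egln3, a prolyl hydroxylase whose own gene is a target of the factor, was at 8.36, 6.86 and 6.56 in high, 8.45, 7.68 and 7.08 in medium and 5.56, 5.19 and 5.54 in low. The low arrays lay below those of both other gates, while the high arrays spread from 6.56 to 8.36. Low was 4.94-fold lower than medium (log2 difference -2.31, SE 0.47, limma adjusted p = 0.0467). That call was lost without high replicate 2, any of the 3 medium arrays or any of the 3 low arrays (up to 0.146 without medium replicate 1). Low minus high was -1.83 (SE 0.47), just outside the threshold (limma adjusted p = 0.0585), and medium minus high was 0.47 (SE 0.47, limma adjusted p = 0.848). Egln1, the main oxygen sensor of most cells, was at 6.88 ± 0.37 (SD, n = 3), 6.68 ± 0.26 and 6.45 ± 0.19 on high, medium and low arrays, and 4 of its 9 arrays share the value 6.66. Vhl, the subunit that recognises the hydroxylated chain, was at 6.36 ± 0.49, 5.47 ± 0.25 and 5.76 ± 0.33, and all 3 medium arrays lay below the high arrays. Arnt was at 7.76 ± 0.10, 7.74 ± 0.17 and 7.85 ± 0.07, with a 95% interval of -0.18 to 0.34 for low minus high.

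Slc2a1 encodes GLUT1, the glucose transporter that hypoxia and activation induce in many cells. It was at 11.72, 11.19 and 11.35 in high, 11.13, 10.79 and 11.15 in medium and 10.29, 10.04 and 10.40 in low. The 3 gates did not overlap and were ordered high, medium, low. Low was 2.26-fold lower than high (log2 difference -1.18, SE 0.17, limma adjusted p = 0.00503), a call kept whichever array was left out (up to 0.0245, without low replicate 2). Low minus medium was -0.78 (SE 0.17), just outside the threshold (limma adjusted p = 0.0554), and medium minus high was -0.39 (SE 0.17, limma adjusted p = 0.644). A second Slc2a1 probe set gave -1.30 for low minus high and -1.10 for low minus medium. Slc2a3, which encodes the high-affinity transporter GLUT3, was at 6.44, 5.42 and 5.25 in high, 4.90, 4.98 and 5.22 in medium and 5.39, 5.69 and 5.63 in low. High replicate 1 stood 1.10 above the mean of the other high arrays, and the low arrays lay within the range of the high arrays. The log2 difference of low minus high was -0.13 (SE 0.27, limma adjusted p = 0.888), with a 95% interval of -0.75 to 0.48.

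**Figure D3:**
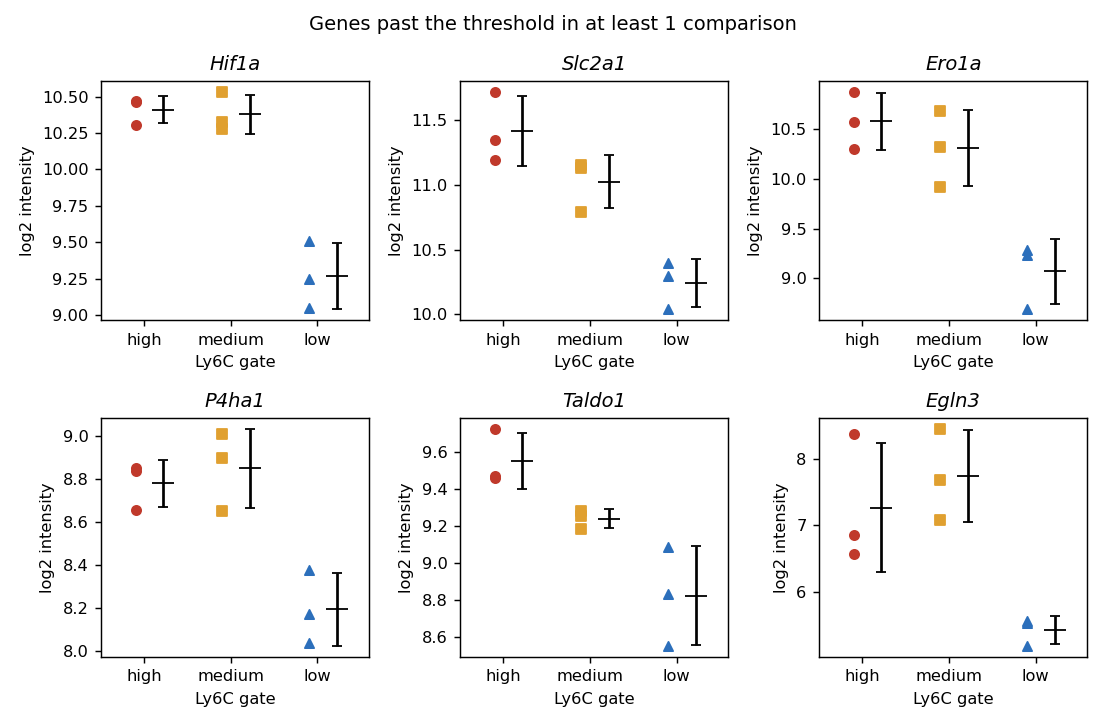
Log2 intensity (vertical axis) on each array by Ly6C gate (horizontal axis) for the 6 genes past the threshold in at least 1 comparison. Coloured points are arrays, and the black dash and bar beside them are the mean and SD of 3 arrays. Hif1a, P4ha1 and Egln3 have overlapping high and medium arrays, with the low arrays below both, and Slc2a1 and Taldo1 step down from high to medium to low.

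Among 12 glycolytic enzymes measured, limma called 0 in low versus high in either direction, while 4 lower and 1 higher had an unadjusted p under 0.05. Over all genes, 5.67% were called in either direction, so 0 of 12 is near that share. At an unadjusted p under 0.05, 7.46% of all genes were lower and 10.4% higher. Hexokinase, which traps glucose in the cell, has 3 forms here. Hk1 was at 5.95, 6.20 and 6.11 in high, 6.27, 5.66 and 6.41 in medium and 6.02, 6.00 and 5.76 in low (low minus high -0.16, SE 0.19, limma adjusted p = 0.773). Hk2, the form that the hypoxia-inducible factor induces, was at 8.34, 7.21 and 7.63 in high, 7.84, 7.03 and 7.81 in medium and 7.55, 7.26 and 7.80 in low (low minus high -0.19, SE 0.31, limma adjusted p = 0.855). Hk3, a form of blood cells, was at 6.88, 6.64 and 6.75 in high, 7.08, 7.08 and 7.03 in medium and 6.74, 6.78 and 6.91 in low (low minus high 0.05, SE 0.10, limma adjusted p = 0.870). The arrays of low and high overlapped for all 3 hexokinases, and the medium arrays of Hk3 lay above those of both other gates (medium minus high 0.31, limma adjusted p = 0.476).

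Phosphofructokinase commits sugar to glycolysis, and its 3 subunit genes had different patterns. Pfkl, the liver-type subunit, was at 8.48, 7.40 and 7.93 in high, 7.31, 7.07 and 7.35 in medium and 6.76, 6.81 and 7.24 in low. Every high array lay above every array of the other gates, and low minus high was -0.998 (SE 0.25), just outside the threshold (limma adjusted p = 0.0538). Without high replicate 2 the call passed (limma adjusted p = 0.0191). Pfkp, the platelet-type subunit, was at 8.90 ± 0.18 (SD, n = 3), 8.61 ± 0.26 and 8.66 ± 0.11 on high, medium and low arrays, and Pfkm, the muscle-type subunit, was at 3.47 to 3.58 in all gates. Aldoc, an aldolase, was dim as well, at 4.69 ± 0.46, 4.67 ± 0.51 and 4.83 ± 0.31.

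The enzymes that follow in glycolysis were not called either. Pgk1, phosphoglycerate kinase, was at 11.15, 10.80 and 10.98 in high, 10.99, 10.93 and 10.99 in medium and 10.53, 10.51 and 10.68 in low. All low arrays lay below the arrays of the other gates, at a log2 difference of -0.40 from high (SE 0.11, limma adjusted p = 0.0745). Tpi1, triosephosphate isomerase, had the same order of arrays, with 10.06 ± 0.44 (SD, n = 3), 10.02 ± 0.19 and 9.54 ± 0.09 on high, medium and low arrays (limma adjusted p = 0.205 for low versus high). Pgam1, a phosphoglycerate mutase, was at 9.59 ± 0.35, 9.30 ± 0.14 and 9.07 ± 0.32, and its probe sets disagreed, since the dimmer one gave a log2 difference of 0.31 for low minus high in place of -0.52. Eno3, the muscle-type enolase, was the one enzyme with every low array above every array of the other gates, at 5.20 ± 0.26, 5.08 ± 0.23 and 5.69 ± 0.21 (low minus high 0.49, limma adjusted p = 0.164). Of 12 skeletal muscle markers 10 were under 5 in every gate, and their list mean was 3.89 to 4.04 in low and 3.94 to 4.05 in high. The part of muscle RNA in the Eno3 values was not tested. Gapdh, often used as a reference gene, was at 12.11, 12.23 and 11.92 in high, 12.25, 12.27 and 12.09 in medium and 12.17, 12.18 and 12.11 in low. Its low minus high difference was 0.06 (SE 0.11, limma adjusted p = 0.861), with a 95% interval of -0.18 to 0.31.

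The bifunctional enzymes that set fructose 2,6-bisphosphate, the activator of phosphofructokinase, differed from each other in pattern. Pfkfb3, the form that inflammation and hypoxia induce, was at 8.22, 7.48 and 7.36 in high, 7.67, 6.78 and 7.08 in medium and 7.03, 6.93 and 6.14 in low. All low arrays lay below all high arrays, and the medium arrays overlapped both (low minus high -0.99, SE 0.32, limma adjusted p = 0.128). Pfkfb4, its relative, was at 5.49, 5.73 and 5.25 in high, 5.51, 5.32 and 5.52 in medium and 5.94, 5.51 and 5.55 in low (low minus high 0.18, SE 0.16, limma adjusted p = 0.665). Its 3 gates overlapped, and the 95% interval of low minus high was -0.17 to 0.54.

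Genes for the fate of pyruvate did not reach the threshold. Slc16a3, which encodes the lactate exporter MCT4, was at 10.58, 10.09 and 10.22 in high, 9.86, 8.98 and 9.93 in medium and 8.65, 8.88 and 9.69 in low. Every high array lay above every array of the other gates (low minus high -1.22, SE 0.32, limma adjusted p = 0.0616). Low replicate 3 was nearest to high, and the difference passed without it (limma adjusted p = 0.0229) and without medium replicate 2 (limma adjusted p = 0.0391). Ldha, the lactate dehydrogenase chain of glycolytic tissue, was at 6.37, 5.98 and 6.31 in high, 6.39, 6.08 and 5.51 in medium and 6.04, 5.76 and 5.84 in low (low minus high -0.34, SE 0.21, limma adjusted p = 0.493). Pdk1, a kinase that closes the route from pyruvate into mitochondria, was at 5.67, 5.87 and 5.72 in high, 5.77, 5.64 and 6.03 in medium and 5.74, 5.53 and 6.08 in low (low minus high 0.03, SE 0.16, limma adjusted p = 0.969). A second Pdk1 probe set gave -0.29 for low minus high and -0.51 for low minus medium. Pdk3, a related kinase, was at 6.66 ± 0.28 (SD, n = 3), 6.35 ± 0.26 and 6.74 ± 0.11 on high, medium and low arrays. For Ldha, Pdk1 and Pdk3 the arrays of low and high overlapped.

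The other hypoxia targets held 2 of the 5 called genes, where 2.32% of all genes were called lower. All 8 measured had a negative log2 difference between low and high, as did 47.3% of all genes. For Car9 this depended on the probe set, since a dimmer one gave 0.16 in place of -0.255. In 5 of these 8 the arrays of low and high overlapped, and 3 (P4ha2, Adm and Car9) were under 5 in every gate. Ero1a, which makes the disulphide bonds of secreted proteins, was at 10.88, 10.30 and 10.57 in high, 10.69, 9.92 and 10.33 in medium and 9.28, 8.69 and 9.24 in low. The low arrays lay below all others, at 2.86-fold under high (log2 difference -1.51, SE 0.24, limma adjusted p = 0.00789) and 2.36-fold under medium (log2 difference -1.24, SE 0.24, limma adjusted p = 0.0378). The call against high held whichever array was left out (up to 0.0292, without low replicate 2). The low versus medium call was lost without high replicate 3, medium replicates 1 or 3, or any low array (up to 0.127 without medium replicate 3). Its second probe set gave -1.41 for low minus high and -1.003 for low minus medium, and with the mean of both probe sets the call against medium was lost (log2 difference -1.12, limma adjusted p = 0.0594).

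P4ha1, a subunit of the enzyme that hydroxylates collagen, was at 8.85, 8.66 and 8.84 in high, 8.90, 8.65 and 9.01 in medium and 8.17, 8.04 and 8.38 in low. High and medium arrays overlapped and low arrays lay below both. Low was 1.50-fold lower than high (log2 difference -0.59, SE 0.13, limma adjusted p = 0.0347) and 1.58-fold lower than medium (log2 difference -0.66, SE 0.13, limma adjusted p = 0.0443). Both calls were near the threshold. The call against high was lost without any high array, medium replicate 1, or low replicates 1 or 2 (up to 0.119 without low replicate 2). The call against medium was lost without any high array, medium replicates 1 or 3, or low replicates 1 or 2 (up to 0.153 without medium replicate 3). Its relative P4ha2 was dim, at 4.60 ± 0.13 (SD, n = 3), 4.55 ± 0.04 and 4.38 ± 0.15 on high, medium and low arrays. Between medium and high P4ha1 differed by 0.07 (95% interval -0.23 to 0.37). Fibroblasts also make this enzyme, their markers were lower in low than in high (10 of 12), and their part in the P4ha1 values was not tested.

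Bnip3, a mitochondrial protein that marks mitochondria for removal, was at 8.63, 8.31 and 8.52 in high, 9.08, 8.31 and 8.55 in medium and 7.90, 7.01 and 7.82 in low. Its low arrays lay below all others without passing the threshold (low minus high -0.91, SE 0.26, limma adjusted p = 0.0878, and low minus medium -1.07, SE 0.26, limma adjusted p = 0.0864). Ndrg1, a hypoxia and stress gene, was at 10.01, 9.96 and 10.10 in high, 10.22, 10.11 and 10.40 in medium and 9.28, 9.91 and 10.17 in low. The medium arrays lay above the high arrays and the low arrays spread across both (low minus high -0.24, SE 0.20, limma adjusted p = 0.656). Ddit4, an inhibitor of mTOR signalling that stress induces, varied widely within each gate, at 8.49, 7.31 and 7.62 in high, 8.41, 6.36 and 7.34 in medium and 7.95, 6.35 and 7.04 in low (low minus high -0.69, SE 0.56, limma adjusted p = 0.631). Adm, a vasodilator peptide, was at 4.49 ± 0.85 (SD, n = 3), 3.16 ± 0.51 and 3.86 ± 0.47, and Car9, the tumour hypoxia marker carbonic anhydrase 9, was at 4.16 ± 0.27, 4.06 ± 0.22 and 3.90 ± 0.18. Both were under 5 in every gate, as were P4ha2, Pfkm and Aldoc.

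In the pentose phosphate pathway, Taldo1, which encodes transaldolase of the branch that rebuilds sugars, was at 9.46, 9.47 and 9.73 in high, 9.28, 9.19 and 9.26 in medium and 8.55, 8.83 and 9.09 in low. The gates did not overlap and stepped down in that order. Low was 1.66-fold lower than high (log2 difference -0.73, SE 0.14, limma adjusted p = 0.021), a call lost without high replicate 3 (0.0718) and without low replicates 1 or 2. Pgd, the dehydrogenase that yields NADPH, was at 10.47 ± 0.19 (SD, n = 3), 10.29 ± 0.07 and 10.11 ± 0.20 on high, medium and low arrays, with all low arrays below all high arrays (limma adjusted p = 0.2).

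The promoters of the 6 called genes are shown because these genes were low in the same gate and the hypoxia-inducible factor is known to bind a short core sequence. Each is the 250 bases before the RefSeq start site in GRCm38.p6. Hif1a is at chr12:73907617-73907866 (plus strand) and Slc2a1 at chr4:119108495-119108744 (plus strand). Ero1a is at chr14:45318573-45318822 (minus strand) and P4ha1 at chr10:59323046-59323295 (plus strand). Taldo1 is at chr7:141391910-141392159 (plus strand) and Egln3 at chr12:54203875-54204124 (minus strand). Capitals mark the core, ACGTG or GCGTG, read on either strand, so that its complements CACGT and CACGC are marked too. The letters CACGTG, which other factors are also known to bind, hold the core on both strands and count as 1 place.
Hif1a: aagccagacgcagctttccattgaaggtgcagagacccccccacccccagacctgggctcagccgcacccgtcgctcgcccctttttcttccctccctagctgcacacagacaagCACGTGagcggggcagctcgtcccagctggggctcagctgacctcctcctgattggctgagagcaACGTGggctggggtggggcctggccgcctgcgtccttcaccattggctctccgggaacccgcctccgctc
Slc2a1: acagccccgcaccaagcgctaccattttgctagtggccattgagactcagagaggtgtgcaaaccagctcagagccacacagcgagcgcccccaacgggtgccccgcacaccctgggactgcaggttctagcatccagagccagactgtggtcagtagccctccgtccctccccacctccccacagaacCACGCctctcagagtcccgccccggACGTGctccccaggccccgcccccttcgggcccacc
Ero1a: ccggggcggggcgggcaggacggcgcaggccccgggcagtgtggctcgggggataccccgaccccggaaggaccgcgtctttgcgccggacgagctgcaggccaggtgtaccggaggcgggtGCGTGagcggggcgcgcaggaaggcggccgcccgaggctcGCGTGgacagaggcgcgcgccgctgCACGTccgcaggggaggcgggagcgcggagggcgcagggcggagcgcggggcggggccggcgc
P4ha1: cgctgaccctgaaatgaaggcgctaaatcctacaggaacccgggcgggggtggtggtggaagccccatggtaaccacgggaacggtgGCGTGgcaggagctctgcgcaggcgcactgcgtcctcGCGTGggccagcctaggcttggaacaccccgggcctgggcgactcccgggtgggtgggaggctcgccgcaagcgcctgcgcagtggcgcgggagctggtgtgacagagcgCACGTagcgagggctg
Taldo1: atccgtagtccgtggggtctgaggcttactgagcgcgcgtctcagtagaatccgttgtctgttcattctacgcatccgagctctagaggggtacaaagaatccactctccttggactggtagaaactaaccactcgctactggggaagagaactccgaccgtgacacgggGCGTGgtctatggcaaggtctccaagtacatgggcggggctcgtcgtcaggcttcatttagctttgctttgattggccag
Egln3: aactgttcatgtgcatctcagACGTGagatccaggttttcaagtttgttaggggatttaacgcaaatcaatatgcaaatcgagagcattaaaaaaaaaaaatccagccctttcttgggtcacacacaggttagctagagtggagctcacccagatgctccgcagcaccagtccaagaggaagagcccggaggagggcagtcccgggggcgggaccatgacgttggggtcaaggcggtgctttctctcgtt

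All 6 windows shown held the core, at 3 places in Ero1a and P4ha1, 2 places in Hif1a and Slc2a1 and 1 place in Taldo1 and Egln3. Any window of these genes on a chromosome other than those given above was left out of the 6. In Hif1a the matches began 135 and 70 bases before the start, and the farther one is the CACGTG form. In Slc2a1 they began 61 and 36 bases before it, and in Ero1a 128, 88 and 63 bases. Promoters were found for 39 of the 43 genes, 52 windows in all, of which 44 (84.6%) held the core and 24 (46.2%) the ACGTG form on either strand. Among all 32851 windows of the same length, 38.6% held the core and 16.6% the ACGTG form. The windows of these genes were also richer in G and C, with a median of 60.4% against 52.4% over all windows, and the part of base composition in this count was not tested. A match is a description of letters, and binding was not measured here. Genes without any call held the core as well, and the list was chosen partly for known hypoxia targets.

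Between Ly6C medium and Ly6C high, limma called 0 of the 36 genes in either direction, while 6 lower and 1 higher had an unadjusted p under 0.05. Over all genes, 0.198% were called lower and 0.0406% higher, or 0.239% in all, and at an unadjusted p under 0.05 the shares were 3.81% lower and 3.72% higher, or 7.53% in all. The median log2 difference of the 36 was -0.15, against 0.03 over all genes, and it was -0.09 without high replicate 1 and -0.07 without medium replicate 2. Genes with every medium array below every high array numbered 8, or 22.2%, where 4.93% of all genes did so. Epas1, Vhl, Slc2a1, Slc2a3, Pfkl, Slc16a3, Adm and Taldo1 were those 8, and Hk3 and Ndrg1 had every medium array above (5.56%, against 5.77% of all genes, and 10.7% of all genes had no overlap in either direction). Adm had the largest negative difference at -1.33 (SE 0.43, limma adjusted p = 0.483). In the same comparison 7 of 12 fibroblast markers were lower in medium, and Col1a2, a collagen chain, was 8.03-fold lower (limma adjusted p = 0.021).

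Between Ly6C low and Ly6C medium, 4 of the 36 genes were lower in low, namely Hif1a, Egln3, Ero1a and P4ha1, and 0 were higher. This is 11.1% of the 36, where 0.541% of all genes were lower, 1.38% higher and 1.93% called in either direction. At an unadjusted p under 0.05, 11 of the 36 were lower (against 5.53% of all genes) and 3 higher (against 8.54%), where 14.1% of all genes were past it. Of all genes called, 71.9% were higher in low. The share was 59.9% with quantile normalization repeated and 74.9% with arrays centred on their median. Under both settings Hif1a, Egln3, Ero1a and P4ha1 were still lower. Without medium replicates 1 or 3 or low replicates 1 or 2, limma called 1 gene. The median log2 difference of the 36 genes was -0.18, against -0.02 over all genes. Every low array lay below every medium array in 11 genes (30.6%, against 7.58% of all genes), and above in 4 (11.1%, against 9.25%), which were Epas1, Slc2a3, Eno3 and Pdk3, where 16.8% of all genes had no overlap in either direction. For 9 genes, the low arrays lay below all 6 arrays of the other gates (25% of the 36, against 4.02% of all genes), and these were Hif1a, Egln3, Slc2a1, Tpi1, Pgk1, Bnip3, Ero1a, P4ha1 and Taldo1. The low arrays lay above all others for Eno3 alone (against 6.2% of all genes). For 5 of the 36 (13.9%, against 2.73%) the high arrays lay above all others, namely Epas1, Slc2a1, Pfkl, Slc16a3 and Taldo1, and for 0 of the 36 they lay below (against 2.5%). The medium arrays were the lowest for Epas1 and Slc2a3 (5.56%, against 0.992%) and the highest for Hk3 (2.78%, against 1.35%). Between low and medium 1 of 12 fibroblast markers was lower, Dcn, and the list median was -0.59, so most of the fibroblast difference lay between high and medium.

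The 3 comparisons share arrays, so their values for the called genes are set side by side without a correlation. From high to low, medium had gone 2.8% of the way for Hif1a, 18.1% for Ero1a, 33.5% for Slc2a1 and 42.8% for Taldo1. For P4ha1 and Egln3 the medium mean lay above the high mean (by 0.07 and 0.47). Over the 36 genes, 17 had their highest mean in high and lowest in low, and 5 had their highest in medium and lowest in low. Another 5 were highest in high and lowest in medium, among them Epas1, Vhl and Slc2a3.

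**Figure D4:**
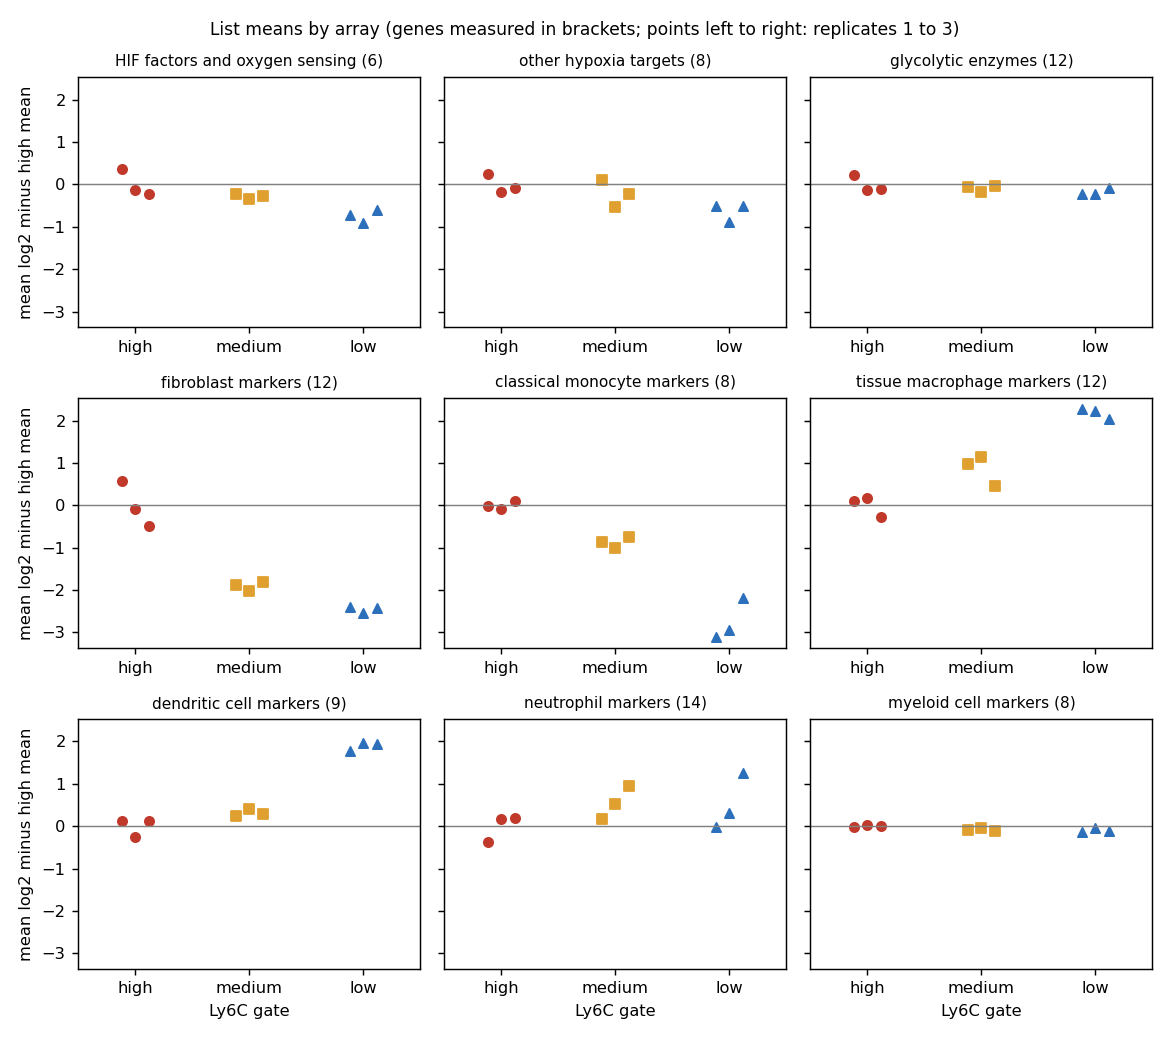
Mean log2 intensity of a gene list on each array minus its mean over the Ly6C high arrays (vertical axis), by gate (horizontal axis), with the number of genes measured in brackets. The fibroblast list is at 4.70 to 4.85 on low arrays and 6.76 to 7.81 on high arrays, and the pan-myeloid list at 11.11 to 11.28 on all arrays.

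Markers of other cells that could be in the gates were set beside these genes. Dendritic cell markers were higher in low (5 of 9 against high and 5 of 9 against medium, 0 lower), and their list mean lay between 6.38 and 6.56 on low, 4.85 and 5.02 on medium and 4.35 and 4.74 on high arrays. Tissue macrophage markers lay between 9.79 and 10.02 on low, 8.21 and 8.89 on medium and 7.47 and 7.93 on high arrays. The share of these cells in a gate was not measured, and their part in the lower Hif1a, Slc2a1 and Ero1a was not tested. Neutrophil markers spread within the low gate, with list means of 4.85, 5.17 and 6.12, and S100a8 was at 7.25, 8.57 and 10.37 there, while Ly6g was under 5 in every gate. Of 14 neutrophil genes, 1 was higher and 2 were lower in low than in high. Keratinocyte markers had 2 of 11 higher in low, Sfn and Cdh1, and of 5 platelet and erythroid markers Pf4 was higher in low and in medium than in high. For the 36 genes the median SD within a gate was 0.26 in high, 0.23 in medium and 0.21 in low, and over all genes it was 0.15 to 0.16. The widest genes were Ddit4 (SD 1.03 in medium), Egln3 (0.96 in high) and Adm (0.85 in high).

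A further 88 genes of the same pathways, listed beside the 43, had 80 measured. Between low and high 6 were lower and 5 higher, with a median log2 difference of -0.03, against 0.01 over all genes. Over all genes 2.32% were called lower and 3.35% higher. The 11 genes of the wider HIF pathway held 0 calls by limma in either direction. Of these 11, 2 were lower at an unadjusted p under 0.05, as were 7.46% of all genes. The other hypoxia response genes held 6 lower and 2 higher of 23. Vegfa, the growth factor of blood vessels and the best-known target of the hypoxia-inducible factor, was at 9.71, 9.62 and 9.45 in high, 9.82, 9.52 and 9.69 in medium and 8.49, 8.02 and 8.31 in low. High and medium overlapped and low lay below both, as for Hif1a. Low was lower than high by a log2 difference of -1.32 (limma adjusted p = 0.00169) and than medium by -1.40 (limma adjusted p = 0.00414), and both calls held whichever of the 9 arrays was left out.

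Among the other 5 lower hypoxia genes, Nfil3, a leucine zipper transcription factor, was at 9.03 in high, 8.33 in medium and 8.20 in low (low minus high -0.83, limma adjusted p = 0.00364), and its medium minus high difference was -0.70 (limma adjusted p = 0.0505). Kdm3a, a histone demethylase, differed by -0.67 (limma adjusted p = 0.0268, lost in 4 of 9 fits that left out 1 array, up to 0.0903, without high replicate 2). Mxi1, an antagonist of Myc, differed by -0.84 (limma adjusted p = 0.0466, lost in 8 of 9, up to 0.129, without high replicate 3). Lox, the collagen cross-linking enzyme that fibroblasts make, differed by -1.74 (limma adjusted p = 0.0298, lost in 5 of 9, up to 0.106, without low replicate 2). Within high, Lox was at 6.68, 5.87 and 4.96, in the order of the fibroblast list means on those arrays. The part of fibroblast RNA in the Lox values was not tested, and an order of 3 arrays cannot show it. The lipid droplet gene Plin2 differed by -0.46 (limma adjusted p = 0.0303, lost in 6 of 9, up to 0.0992, without low replicate 1). Against medium its difference was -0.59 (limma adjusted p = 0.0228, lost in 5 of 9, up to 0.0919, without medium replicate 3). Bhlhe41, a transcriptional repressor, was higher in low by 1.60 (limma adjusted p = 0.00506), and Selenbp1, a selenium-binding protein, by 1.23 (limma adjusted p = 0.0396, lost in 7 of 9, up to 0.125, without high replicate 2). Bhlhe41 was dim, at 3.95, 4.60 and 5.55 on high, medium and low arrays.

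The other glycolysis and glycogen genes had 2 of 36 higher in low than in high and 0 lower, where 3.35% of all genes were higher and 2.32% lower. Txnip, an arrestin-like protein that curbs glucose uptake, was at 9.28, 9.49 and 8.85 in high, 9.14, 9.48 and 8.98 in medium and 10.32, 10.12 and 9.88 in low. It was higher in low than in high by a log2 difference of 0.90 (limma adjusted p = 0.031, lost in 5 of 9, up to 0.114, without low replicate 1). Against medium its difference was 0.91 (limma adjusted p = 0.0561). Gbe1, the glycogen branching enzyme, was at 6.25 in high and 6.93 in both medium and low (low minus high 0.68, limma adjusted p = 0.0238, lost in 2 of 9, up to 0.0884, without low replicate 2). Pkm, the pyruvate kinase of non-liver tissue, was at 11.83, 11.77 and 11.70 on high, medium and low arrays (limma adjusted p = 0.599 for low versus high). Prps2, a synthetase that turns ribose phosphate into the nucleotide precursor PRPP, was the one gene called among 10 other pentose phosphate genes. Over all genes, 5.67% were called in low versus high and 1.93% in low versus medium. Prps2 was at 4.29, 4.28 and 5.475 on high, medium and low arrays, and so under 5 in high and medium. It was higher in low than in high by 1.18 (limma adjusted p = 0.00344) and than in medium by 1.19 (limma adjusted p = 0.00895), and both calls held whichever array was left out.

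**Figure D5:**
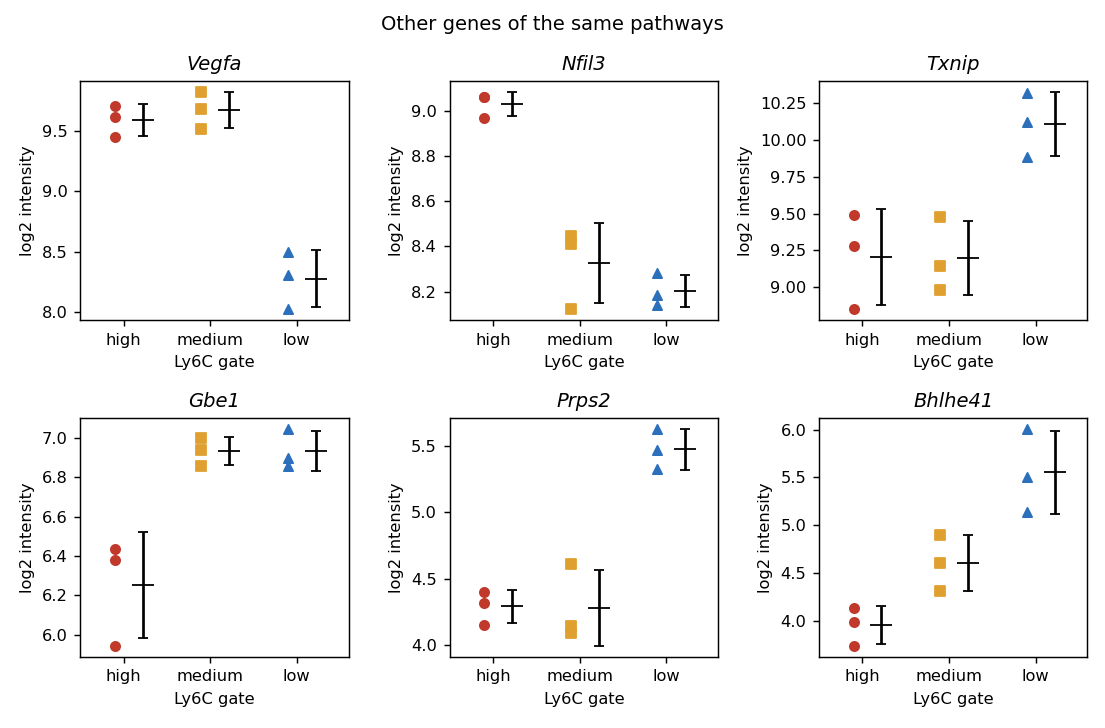
Log2 intensity (vertical axis) on each array by Ly6C gate (horizontal axis) for 6 further genes of the pathways that were called in low versus high. Coloured points are arrays, and the black dash and bar are the mean and SD of 3 arrays. Vegfa is at 8.02 to 8.49 in low against 9.45 to 9.82 on the other arrays, and Txnip, Prps2 and Bhlhe41 are highest in low.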

How the data were processed

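The deposited values are log2 intensities per probe set, which the authors made with RMA per the submitters' processing notes. Its version and settings, the genome build and the annotation are not given in the sources used here. RNA had been amplified before labelling, per the labels' protocols, and cells of all gates were sorted on 1 day. RMA scales all arrays alike, so a shift of all genes would not be seen, and a log2 difference of dim genes is compressed. Of 41345 probe sets, 23521 carried 1 gene symbol, 1814 several and 16010 none; only the first kind was used, without a filter on dim genes. Names come from GEO's platform annotation, and promoters from RefSeq (GRCm38.p6).

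All 9 arrays entered a single limma fit (R 4.3.3, limma 3.58.1, lmFit and eBayes, two-sided, 6 residual degrees of freedom), with Benjamini-Hochberg adjustment over 22180 genes and a threshold of 0.05. The number of arrays limits the precision. Intervals are 95% intervals of the fit. The members, the other lists and the naming rule were set with earlier results of these data known, so no list was tested as a set. By that rule, members called in any comparison and a fixed group of well-known genes get every array's value. Outside that rule, Pfkl, Pgk1, Slc16a3 and Bnip3 were given array by array as well. They were not called, but lay near the threshold in low versus high. Other genes are given by their gate means, and genes of the wider pathways are named if called (the 10 largest per comparison, with Plin2, the smallest of 11 in low versus high, added after its values were seen). The alternatives are given at the end. Same-numbered arrays were checked for pairing: their deviations correlated at -0.02 to 0.31, not all above 0.1, so the numbers were not taken as pairs. Tested on simulated data over 22180 genes, the low versus high fit found 88.1% of the genes given a log2 change of 1 and 98.5% of those given 2, and 5.91% of its calls were false. At a log2 change of 1 it found 77.6% for medium versus high and 80.6% for low versus medium, with 2.15% and 3.63% of calls false. The simulation was 1 run with independent normal noise at each gene's moderated spread, and the changed genes were picked at random. The members had a higher median SD within each gate than all genes, so these shares do not carry over to them. A member that was not called may still differ.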

Additional observations from a re-analysis of the deposited data

How the results depend on the processing

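All the genes called among the 36 in the reported fit were lower in low, and none of them changed sign under any of the 20 alternatives run. Over 108 gene and comparison pairs, 2046 values kept their side of the threshold, 42 lost it and 36 gained it. Between low and high, 5 genes were called in the reported fit, 8 when only genes above the array median were tested, 9 when only genes at 6 or more were tested and 9 with array weights. Calls over all genes rose too, from 1258 of 22180 to 1506 of 11540, 1305 of 6306 and 1438 of 22180 in these settings. Of the 36, 3 were called with only the 2 gates compared and 2 with the equal-variance test without moderation. At an unadjusted p under 0.05, the equal-variance test had 14 of the 36, against 3378 of 22180 genes. Testing only genes at 6 or more moved the median log2 difference of low minus high to -0.52, a filter that leaves out dim genes. Between medium and high, 1 gene, Epas1, was called when only genes above the array median were tested (limma adjusted p = 0.045). Between low and medium, 2 genes were called with only the 2 gates compared and 0 with the equal-variance test. At an unadjusted p under 0.05, the equal-variance test had 11 of the 36, against 2630 of 22180 genes. Over all genes, the fits of only the 2 gates called 644 genes for low versus high, 1 for medium versus high and 211 for low versus medium, and the equal-variance test 385, 0 and 33 in that order (1412 at an unadjusted p under 0.05 for medium versus high), against 1258, 53 and 427 as reported.

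With the replicate number as a fixed replicate block, 11 genes were called in low versus high, 10 lower and Eno3 higher (limma adjusted p = 0.0404), and 7 in low versus medium, while calls over all genes rose to 1564 (672 lower and 892 higher) and 629. The genes gained against high were Egln3, Pfkl, Eno3, Pfkfb3, Slc16a3 and Bnip3. In 11 of 18 cases an array's deviations correlated best with its own number in another gate, which is a hint from the data and not the design. With a random replicate block the estimated correlation was 0.

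Leaving out each array in turn gave 3 to 6 called genes in low versus high, 1 to 4 in low versus medium and 0 in medium versus high. The fewest in low versus high came without high replicate 3, low replicate 1 or low replicate 2, and the fewest in low versus medium without medium replicates 1 or 3 or low replicates 1 or 2. The median log2 differences ran from -0.48 to -0.27 for low minus high, -0.20 to -0.07 for medium minus high and -0.22 to -0.15 for low minus medium. Over all genes, 596 to 1243 were called in low versus high, 2 to 72 in medium versus high and 119 to 522 in low versus medium. The cause of these changes was not tested. With 3 arrays a gate, the SE of a log2 difference ran up to 0.56, for Ddit4.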
